A study of Homo sapiens with 16 samples.

Results

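The mRNAs of 10 core circadian clock genes, NR1D1, NR1D2, PER1, PER2, PER3, CRY1, CRY2, BMAL1, CLOCK and DBP, were followed in HEK293 cells with and without silencing of Gemin5, in cytoplasmic lysates and in polysomes. The members were taken by symbol out of 58302 genes in the count files. They were chosen by their place in the clock and selected on measured values of siRNAG5 against Ctrl, since NR1D2 mRNA was seen to be higher after silencing in Polysome and not in Input. The values of siRNAG5 against Ctrl are therefore given for all 10 members as a description, and where the text says how many members passed the threshold, the count restates the choice and is no test. The comparison of Polysome with Input within Ctrl and within siRNAG5 is reported as a test for the 9 members other than NR1D2, whose values there are also a description. For PER2 that test has a limit, given with its values.

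The clock is a transcriptional feedback loop. CLOCK and BMAL1 form a heterodimer that binds E-box DNA and activates the PER and CRY genes, whose proteins return to the nucleus and repress that heterodimer. In an interlocked loop, the nuclear receptors NR1D1 and NR1D2 (REV-ERB alpha and beta) repress BMAL1 at sites shared with the ROR activators, while DBP, a factor of the PAR bZIP family that acts at D-boxes, carries the rhythm to output genes.

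HEK293 is a cell line derived from human embryonic kidney. Total RNA of cytoplasmic lysates (Input) and polysome-bound RNA (Polysome) were sequenced from cells treated with an siRNA against Gemin5 (siRNAG5) and from control cells (Ctrl), with 4 libraries in each of the 4 groups. Gemin5 is an RNA-binding protein of the snRNP assembly complex that also acts in translation. The protocol names 100 nM siRNA and a control siRNA, while the treatment label of the Ctrl samples reads Untreated, so whether Ctrl cells received the control siRNA was not settled. All groups are 1 cell line and 1 siRNA, and the labels give neither a time of harvest nor a step that synchronises the cells, so a level here has no known clock phase.

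GEMIN5 mRNA was at 17.9 ± 2.32 CPM (SD, n = 4) in Input Ctrl and 6.72 ± 0.529 in Input siRNAG5, and at 7.44 ± 1.56 and 2.65 ± 0.495 in the Polysome groups, where CPM is the count scaled to the library's reads on genes, with TMM factors set over all libraries. Libraries held 11145324 to 24511299 reads on genes. Reads that mapped to several places were 4.88% to 6.04% of those counted in Input and 21.2% to 42.4% in Polysome. The 5 HEK293 markers (KRT8, KRT18, VIM, CDH2, PAX2) had reads in every group. The 16 liver markers summed to 1.27 to 154.7 CPM in Input Ctrl, 1.07 to 1.6 in Input siRNAG5, 83.0 to 172.7 in Polysome Ctrl and 0.454 to 0.968 in Polysome siRNAG5. All 16 had reads in both Ctrl groups, while 6 of the 16 (APOB, APOC3, APOH, SERPINA1, FGA and CYP3A4) had none in any siRNAG5 library. Within Input Ctrl these reads lay in replicates 3 and 4, where albumin (ALB) had 585 and 414 reads against 0 in replicates 1 and 2. The 8 blood markers summed to 5.7 to 7.31 CPM in Polysome Ctrl and to 0.539 to 2.37 in the other groups, with 4 of the 8 at 0 in Polysome siRNAG5. The 8 brain markers summed to 7.55 to 15.4 CPM over the 16 libraries. Liver reads and Ctrl cannot be told apart in Polysome, where all 4 Ctrl libraries held them and no siRNAG5 library did above 0.968 CPM.

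Promoter sequences are shown for the NR1D pair and for PER1, PER2 and CRY1, whose windows hold an E-box or E′-box, the elements through which the loop is wired. They run from 250 bases before to 50 bases after an annotated start, from RefSeq on GRCh38.p14, 5′ to 3′ on the gene's strand. Capitals mark an E-box (CACGTG), an E′-box (CACGTT or AACGTG), a ROR core (AGGTCA, read as TGACCT on the other strand) or a D-box (TTANNTAA), searched on both strands with no overlap between marked motifs in these windows.
NR1D2 (chr3:23945871-23946170, plus strand): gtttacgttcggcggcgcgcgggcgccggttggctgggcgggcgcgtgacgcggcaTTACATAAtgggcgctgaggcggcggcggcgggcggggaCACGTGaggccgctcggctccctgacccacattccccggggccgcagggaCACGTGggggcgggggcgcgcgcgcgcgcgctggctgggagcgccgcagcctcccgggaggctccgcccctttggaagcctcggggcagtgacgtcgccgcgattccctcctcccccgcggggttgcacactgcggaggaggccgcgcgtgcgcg
NR1D1 (chr17:40100540-40100839, minus strand): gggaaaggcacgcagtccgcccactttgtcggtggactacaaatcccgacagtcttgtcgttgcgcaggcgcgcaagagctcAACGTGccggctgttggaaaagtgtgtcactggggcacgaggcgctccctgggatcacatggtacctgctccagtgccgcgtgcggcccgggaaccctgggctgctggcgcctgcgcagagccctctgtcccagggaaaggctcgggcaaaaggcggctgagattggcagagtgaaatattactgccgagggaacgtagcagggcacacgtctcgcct
PER1 (chr17:8152355-8152654, minus strand): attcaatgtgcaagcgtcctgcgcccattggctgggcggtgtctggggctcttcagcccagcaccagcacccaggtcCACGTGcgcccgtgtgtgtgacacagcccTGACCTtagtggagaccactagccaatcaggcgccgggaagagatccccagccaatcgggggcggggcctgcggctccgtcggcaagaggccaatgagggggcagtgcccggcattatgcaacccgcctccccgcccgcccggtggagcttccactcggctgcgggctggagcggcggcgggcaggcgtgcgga
PER2 (chr2:238288561-238288860, minus strand): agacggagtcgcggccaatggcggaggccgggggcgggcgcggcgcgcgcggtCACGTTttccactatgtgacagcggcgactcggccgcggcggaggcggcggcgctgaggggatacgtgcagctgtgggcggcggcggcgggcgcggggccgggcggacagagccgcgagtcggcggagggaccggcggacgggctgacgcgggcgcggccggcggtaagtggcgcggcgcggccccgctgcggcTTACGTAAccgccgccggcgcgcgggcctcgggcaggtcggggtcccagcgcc
CRY1 (chr12:107093500-107093799, minus strand): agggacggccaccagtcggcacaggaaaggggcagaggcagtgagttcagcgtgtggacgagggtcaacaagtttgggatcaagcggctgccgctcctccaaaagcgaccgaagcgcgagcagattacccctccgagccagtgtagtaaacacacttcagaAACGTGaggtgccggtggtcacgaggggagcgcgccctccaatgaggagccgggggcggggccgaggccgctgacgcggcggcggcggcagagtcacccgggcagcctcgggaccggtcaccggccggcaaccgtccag
The NR1D2 window held 2 E-boxes and 1 D-box, while its other annotated start held none of these motifs. NR1D1, PER2 and CRY1 each held 1 E′-box, PER2 also 1 D-box, and PER1 1 E-box and 1 ROR core. CRY2 held 1 ROR core at both annotated starts and 1 E′-box at one of them, and CLOCK 1 E′-box at 1 of 2 starts. BMAL1 held 1 ROR core at one start and 1 D-box at the other, PER3 2 D-boxes at 1 of 2 starts, and the DBP window none of the motifs. Of 35116 promoter windows of this length, 7.26% held an E-box, 5.34% an E′-box, 13.8% a ROR core and 5.63% a D-box. A match describes the letters and not a bound site.

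All 10 genes were read in every library, over a wide range of levels. Per kilobase of merged exons, DBP was the highest member in Input Ctrl, at 5.80 ± 0.38 CPM per kb (SD, n = 4). CRY1 followed at 3.29 ± 0.278, and neither overlapped its neighbour in the order. NR1D1 (1.07 ± 0.183), PER1 (1.03 ± 0.236), NR1D2 (0.874 ± 0.102) and BMAL1 (0.776 ± 0.176) came next, each overlapping the next in range. CRY2 (0.447 ± 0.0427) and CLOCK (0.153 ± 0.0118 CPM per kb) stood apart below them, and PER2 (0.0638 ± 0.0314) and PER3 (0.0507 ± 0.02), which overlapped, were lowest. PER2 had 3 to 7 reads and PER3 3 to 8 reads in an Input Ctrl library, so their levels rest on few reads.

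The order was different in Polysome. In Polysome Ctrl NR1D2 came to 2.85 ± 0.347 CPM per kb, below DBP (6.69 ± 0.861) and CRY1 (5.60 ± 1.23) and without overlap with the members on either side. In Polysome siRNAG5 NR1D2 reached 5.52 ± 0.614 CPM per kb, in a range that overlapped those of CRY1 (5.84 ± 1.18) and DBP (5.07 ± 0.724). The place of DBP depended on the length used. Per kilobase of the canonical transcript alone it was the highest member in all 4 groups, at 15.2 ± 2.16 CPM per kb in Polysome siRNAG5 against 6.11 ± 0.68 for NR1D2. In all 4 groups PER2 and PER3 were the lowest members by either length.

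**Figure D1:**
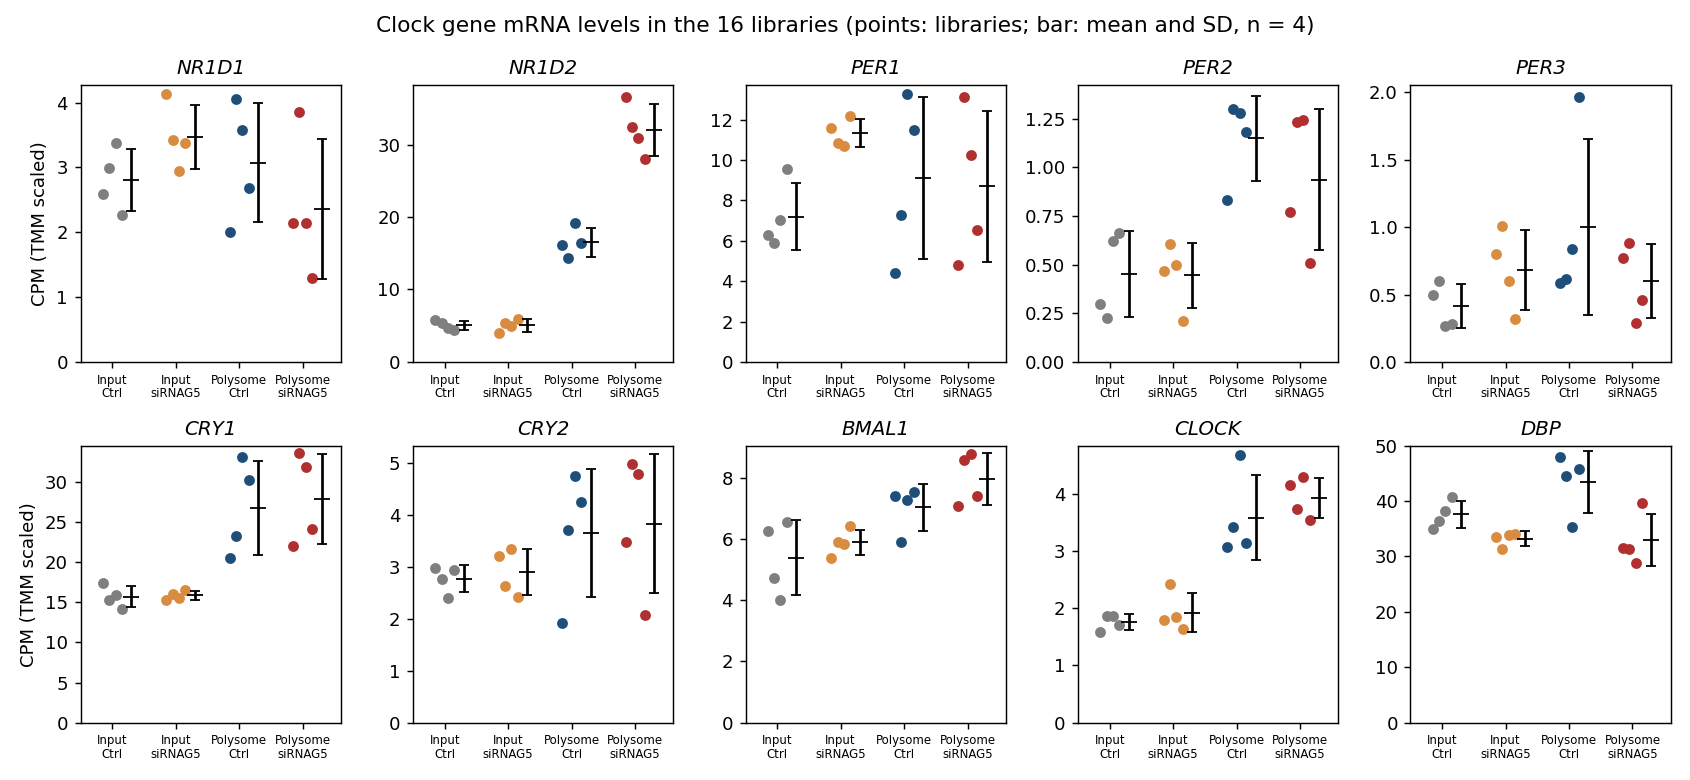
Level of each clock gene in CPM (vertical axes, TMM scaled, starting at 0 and different for each gene) in the 4 groups. Points are libraries and bars the mean and SD of 4; NR1D2 lies between 28.0 and 36.6 CPM in Polysome siRNAG5 and between 14.4 and 19.2 in Polysome Ctrl, and at or below 5.94 in every Input library.

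NR1D2 (ENSG00000174738, chr3:23945286-23980617, plus strand, 8 exons in the canonical transcript, GRCh38) is the gene the choice turned on. Its levels were 5.77, 5.31, 4.71 and 4.45 CPM in the 4 Input Ctrl libraries and 3.93, 5.30, 4.93 and 5.94 in Input siRNAG5. They were 16.1, 14.4, 19.2 and 16.4 CPM in Polysome Ctrl and 36.6, 32.4, 30.9 and 28.0 in Polysome siRNAG5. The Input groups overlapped throughout, whereas every Polysome siRNAG5 library was above every Polysome Ctrl library, and every Polysome library above every Input library. The log2 fold change (FC) of siRNAG5 against Ctrl was 0.01 ± 0.16 (SE) in Input and 0.99 ± 0.15 in Polysome, and the difference of both was 0.96 ± 0.20. Polysome against Input, the log2 FC of NR1D2 was 1.72 ± 0.15 in Ctrl and 2.75 ± 0.16 in siRNAG5. In these comparisons 2.2% and 0.439% of all genes tested had a higher value. Under the alternatives without a left-out library the Polysome change of NR1D2 after silencing kept between 0.85, with an offset for GC content, and 1.03, and it was between 0.93 and 1.07 with any 1 library left out.

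NR1D1, the paralog of NR1D2 (chr17:40092793-40100589, minus strand), had other values. Input Ctrl libraries held 2.59, 2.99, 3.38 and 2.27 CPM, Input siRNAG5 4.13, 3.42, 2.94 and 3.37. Polysome Ctrl held 2.00, 4.05, 3.57 and 2.68 CPM and Polysome siRNAG5 2.15, 3.85, 2.14 and 1.29. The groups overlapped in both fractions. The log2 FC of siRNAG5 against Ctrl was 0.30 ± 0.19 (SE) in Input and -0.34 ± 0.33 in Polysome, with a difference of -0.68 ± 0.39. NR1D1 was not shown to differ between Polysome and Input in Ctrl (log2 FC 0.15 ± 0.24, edgeR adjusted p = 0.638) or in siRNAG5 (-0.45 ± 0.29, adjusted p = 0.215), and plus or minus 2 SE these values run from -0.34 to 0.64 and from -1.03 to 0.13. Without Polysome siRNAG5 replicate 2 the siRNAG5 value of NR1D1 was -0.81 and called lower. Its exons share 473 bases, 18% of their length, with THRA on the opposite strand, which had 915 to 2600 reads in a group against 128 to 236 for NR1D1. The strand setting of the counting is not given in the sources used here, so reads of the shared stretch may have been left out as ambiguous or shared. The same limit holds for DBP, which shares 661 bases (10.2%) with SPHK2 on the opposite strand (271 to 453 reads in a group). PER3 shares 868 bases (10.7%) with UTS2 on the opposite strand (5 to 13 reads in a group).

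After silencing of Gemin5, PER1 was the one clock mRNA past the threshold in Input, among 8 members that passed the filter on low counts (PER2 and PER3 did not). A call is an edgeR adjusted p under 0.05 with a log2 FC beyond 0.5. Of all 14134 genes tested in Input, 10.5% were called higher and 6.02% lower. The median log2 FC was 0.10 over the 8 members and 0.04 over all genes. PER1, a repressor of CLOCK and BMAL1 that is also an early response gene to many signals, was at 6.27, 5.91, 7.02 and 9.57 CPM in Input Ctrl and 11.6, 10.9, 10.7 and 12.2 in Input siRNAG5, so the groups did not overlap. Its log2 FC was 0.68 ± 0.13 (SE). It was 0.91 without Input Ctrl replicates 3 and 4, which hold liver reads, and 0.66 and no longer called in a fit over all 16 libraries. DBP was the other member without overlap, at 35.0 to 40.7 CPM in Input Ctrl and 31.3 to 34.1 in Input siRNAG5 (log2 FC -0.16 ± 0.08), and across all genes 34.2% showed no overlap in either direction. CRY1 (0.03 ± 0.10), CRY2 (0.08 ± 0.19), BMAL1 (0.16 ± 0.16) and CLOCK (0.12 ± 0.23) overlapped between the groups.

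In Polysome, NR1D2, on which the choice rests, was the one member of 10 past the threshold after silencing. Of 14420 genes tested, 3.95% were called higher and 4% lower, and 18.3% showed no overlap between the groups against 1 of the 10 members. The median log2 FC was 0.04 over the members and 0.03 over all genes. PER1 spread widely, from 4.41 to 13.3 CPM in Polysome Ctrl and from 4.82 to 13.1 in Polysome siRNAG5 (log2 FC -0.02 ± 0.35 SE). Its Polysome levels were low in Ctrl replicate 1 and siRNAG5 replicates 1 and 4, and those libraries also stood apart from the other Polysome libraries on the third principal component of all genes (35.3 to 38.5 against -26.3 to 2.16, 8.26% of the variance). Within each treatment CRY1 and CRY2 also had their lowest Polysome values in these libraries, at 20.5 to 24.2 CPM and 1.92 to 3.48 CPM. The part of that component in the PER1 and CRY values was not tested. PER2 (-0.25 ± 0.33) and PER3 (-0.67 ± 0.46) rested on 7 to 32 reads a library.

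DBP was at 48.0, 44.6, 35.3 and 45.7 CPM in Polysome Ctrl and 31.6, 31.4, 28.9 and 39.7 in Polysome siRNAG5 (log2 FC -0.36 ± 0.15). The groups overlapped through Ctrl replicate 3 and siRNAG5 replicate 4. DBP is abundant in liver, and the Ctrl libraries hold the liver reads given above, whose part in this value was not tested. BMAL1 (0.23 ± 0.16) and CLOCK (0.16 ± 0.20), the activator pair, and CRY1 (0.11 ± 0.19) and CRY2 (0.11 ± 0.31) overlapped between the groups. The difference of the siRNAG5 change between Polysome and Input was called by edgeR for 0 of all 14958 genes, the members included (0% higher and 0% lower), while 1089 genes passed at an unadjusted p under 0.05 and DESeq2 called 29.

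**Figure D2:**
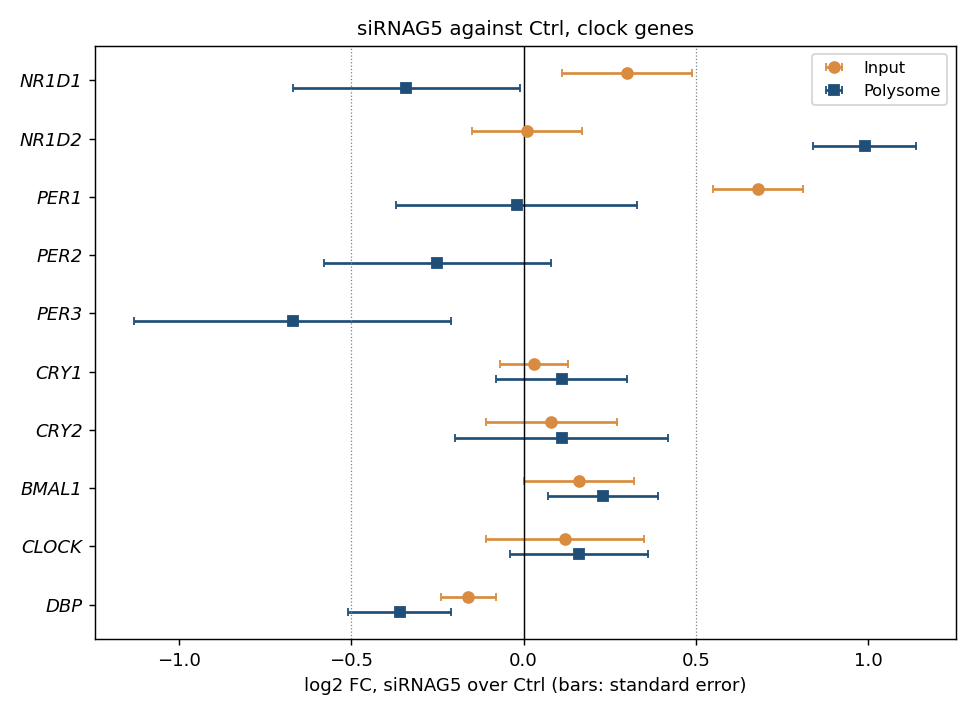
Log2 FC of siRNAG5 over Ctrl (horizontal axis) for each clock gene in Input (circles) and Polysome (squares), with bars of 1 SE; dotted lines mark a log2 FC of 0.5 in either direction. NR1D2 lies at 0.01 in Input and 0.99 in Polysome, and PER1 at 0.68 and -0.02; PER2 and PER3 were not tested in Input.

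Some clock mRNAs stood higher in Polysome than in Input on the TMM scale, as did many genes outside the clock. NR1D2 is left out of the counts that follow. In Ctrl, 3 of 8 members tested were called higher in Polysome by edgeR (PER2, CRY1 and CLOCK) and 0 lower, where 20.8% of 13666 genes were called higher and 18.8% lower. In siRNAG5, 4 of 9 were called higher (PER2, CRY1, CLOCK and BMAL1) and 0 lower, where 23.9% of 14795 genes were called higher and 21.2% lower. PER2 did not pass the filter within Input and entered these tests through its Polysome reads. A library held 3 to 7 of its reads in Input Ctrl and 10 to 23 in Polysome Ctrl. Its place in these counts is therefore in part set by the filter. Apart from PER2, the calls were CRY1 and CLOCK in Ctrl and CRY1, CLOCK and BMAL1 in siRNAG5. DESeq2 also gave 3 and 4 members higher and 0 lower, and 4 in each comparison were higher and 0 lower at an unadjusted p under 0.05 in edgeR. The log2 FC was above 0 for 8 of 8 members in Ctrl and 6 of 9 in siRNAG5, against 6587 of 13666 and 7044 of 14795 genes. Their median was 0.41 in Ctrl and 0.50 in siRNAG5, against -0.03 and -0.04 over all genes. The comparisons within Ctrl and within siRNAG5 use different libraries, and each shares its libraries with the comparisons of siRNAG5 with Ctrl. All Polysome Ctrl libraries and Input Ctrl replicates 3 and 4 held the liver reads given above, whose part in the Ctrl values was not tested. Without those Input replicates, the log2 FC in Ctrl was 2.13 for PER2, 0.70 for CRY1 and 1.04 for CLOCK, all called. That fit sets Input libraries almost free of liver reads against Polysome libraries that all hold them. Fraction and liver reads cannot be told apart in it, so it does not show the part of the liver reads. With TMM, CPM is set relative to the bulk of genes and is not a plain share of a library. The factors differed between fractions. NR1D1 had 26 of 13347866 reads on genes and 2.59 CPM in Input Ctrl replicate 1. NR1D2 had 841 of 16365110 reads and 32.4 CPM in Polysome siRNAG5 replicate 2. The size and sign of a small change between fractions depend on this scaling. More ribosomes on an mRNA and less of other mRNAs in the fraction cannot be told apart, just as fewer cells of a type and less RNA per cell cannot in a bulk sample.

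CLOCK, the DNA-binding partner of BMAL1 (chr4:55427903-55546909, minus strand), was at 1.59, 1.87, 1.87 and 1.71 CPM in Input Ctrl and 3.08, 3.43, 4.69 and 3.15 in Polysome Ctrl. In siRNAG5 it was at 1.80, 2.42, 1.84 and 1.63 CPM in Input and 4.15, 3.73, 4.29 and 3.55 in Polysome. All Polysome values exceeded all Input values in both treatments. CLOCK rose by a log2 FC of 1.04 ± 0.23 (SE) in Ctrl (edgeR adjusted p = 0.00122) and 1.12 ± 0.19 in siRNAG5 (adjusted p = 0.000386). A higher value was found for 8.99% and 10.5% of genes tested.

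BMAL1 (chr11:13276652-13387266, plus strand) moved less. It was at 6.27, 4.71, 4.00 and 6.54 CPM in Input Ctrl against 7.41, 5.91, 7.26 and 7.55 in Polysome Ctrl, with overlap. Its levels in siRNAG5 were 5.39, 5.90, 5.83 and 6.42 CPM in Input against 7.07, 8.58, 8.78 and 7.42 in Polysome, without overlap. The log2 FC was 0.40 ± 0.19 in Ctrl (edgeR adjusted p = 0.0853) and 0.52 ± 0.15 in siRNAG5 (adjusted p = 0.0103). The siRNAG5 call stood near the fold limit and was lost at 0.44 in a fit over all 16 libraries, at 0.48 with 1 surrogate variable and at 0.45 with an offset for GC content. It was also lost without Input siRNAG5 replicate 1 and without Polysome siRNAG5 replicate 2 or 3 (log2 FC 0.47 to 0.59 over all left-out libraries).

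CRY1, the cryptochrome with the higher level here (chr12:106991364-107093549, minus strand), was at 17.4, 15.3, 15.9 and 14.2 CPM in Input Ctrl and 20.5, 23.3, 33.1 and 30.3 in Polysome Ctrl. In siRNAG5 it was at 15.25, 16.04, 15.59 and 16.57 CPM in Input and 22.1, 33.6, 31.8 and 24.2 in Polysome, and neither pair of groups overlapped. CRY1 rose by 0.78 ± 0.15 in Ctrl (edgeR adjusted p = 0.000574) and 0.90 ± 0.15 in siRNAG5 (adjusted p = 0.000428) on the log2 scale. For its paralog CRY2 the values were 0.43 ± 0.25 (adjusted p = 0.179) and 0.50 ± 0.27 (adjusted p = 0.137), with 2 SE reaching from -0.08 to 0.93 and from -0.04 to 1.04; both intervals include the values of CRY1. CRY2 was called at 0.62 in Ctrl without Polysome Ctrl replicate 1 and at 0.73 in siRNAG5 without Polysome siRNAG5 replicate 4.

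PER2 rose by 1.38 ± 0.38 in Ctrl (edgeR adjusted p = 0.00718) and 1.19 ± 0.39 in siRNAG5 (adjusted p = 0.0233). Its levels were 0.298, 0.225, 0.622 and 0.663 CPM in Input Ctrl and 0.833, 1.30, 1.28 and 1.18 in Polysome Ctrl. In siRNAG5 they were 0.466, 0.604, 0.498 and 0.210 CPM in Input and 0.769, 1.23, 1.24 and 0.507 in Polysome, where Polysome replicate 4 fell among the Input values. The siRNAG5 call was lost without Input replicate 1 or 4 or Polysome replicate 2 or 3 (log2 FC 0.95 to 1.42 over all left-out libraries). Without Input Ctrl replicates 3 and 4 the Ctrl value was 2.13 (edgeR adjusted p = 0.00865), in a fit where fraction and liver reads cannot be told apart. PER2 had 20 and 30 reads in all in the Input groups and 67 and 88 in the Polysome groups. It passed the filter on low counts through the Polysome libraries, so a higher Polysome value was in part set in advance.

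PER1 was not shown to differ between Polysome and Input, at a log2 FC of 0.37 ± 0.27 in Ctrl (edgeR adjusted p = 0.275) and -0.29 ± 0.26 in siRNAG5 (adjusted p = 0.372). The Ctrl value was 0.59 and called higher without Polysome Ctrl replicate 1. The siRNAG5 value became -0.50 and called lower with 1 surrogate variable, as did that of NR1D1 at -0.61. PER3 was too low to be tested in Ctrl and was at -0.05 ± 0.42 in siRNAG5 (adjusted p = 0.924). DBP was at 0.22 ± 0.12 in Ctrl (adjusted p = 0.164) and 0.07 ± 0.11 in siRNAG5 (adjusted p = 0.645), and 2 SE bound its change between -0.03 and 0.47 and between -0.16 and 0.30. Besides NR1D2, groups did not overlap for 3 members in each comparison (PER2, CRY1 and CLOCK in Ctrl, CRY1, BMAL1 and CLOCK in siRNAG5), where 44.4% and 50.4% of all genes showed no overlap in either direction.

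**Figure D3:**
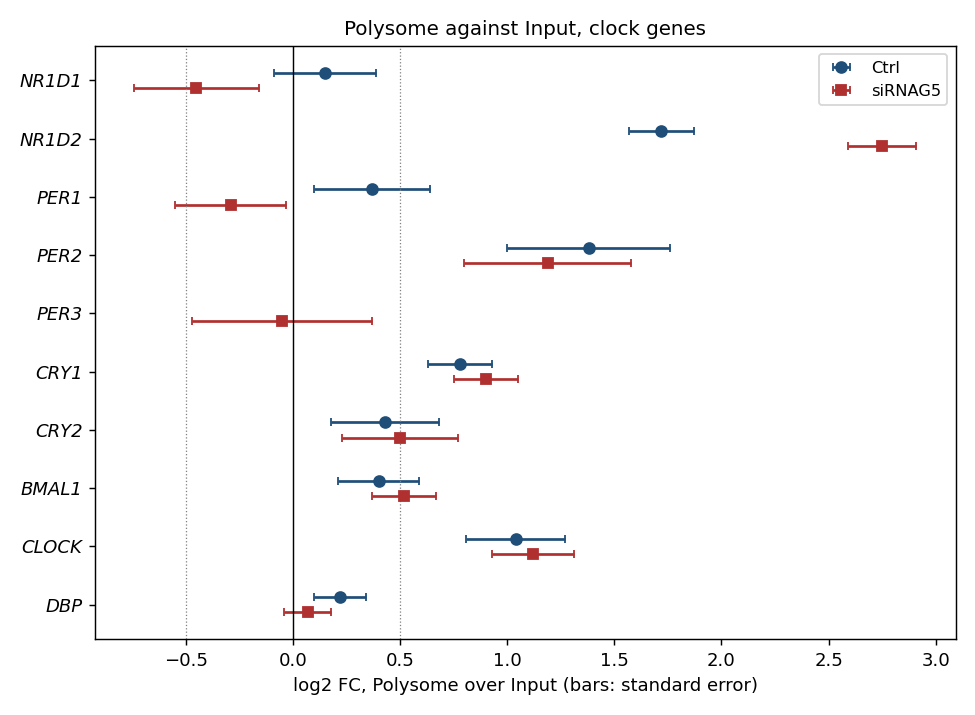
Log2 FC of Polysome over Input (horizontal axis) for each clock gene in Ctrl (circles) and siRNAG5 (squares), with bars of 1 SE and dotted lines at a log2 FC of 0.5 in either direction. NR1D2 lies at 1.72 and 2.75, PER2, CRY1 and CLOCK between 0.78 and 1.38, and NR1D1, PER1 and DBP between -0.45 and 0.37; PER3 was not tested in Ctrl.

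The base composition of the transcripts was set beside these values, and its part in them was not tested. In order of rising GC content, the siRNAG5 values were 1.12 for CLOCK, 0.52 for BMAL1, 0.90 for CRY1 and 0.50 for CRY2. NR1D1 (-0.45), PER1 (-0.29) and DBP (0.07) followed. PER2 (1.38 in Ctrl and 1.19 in siRNAG5, at 52.4% GC) and PER3 (-0.05 in siRNAG5, at 46.5% GC) rest on few reads. The canonical transcripts of CLOCK (37.6% GC) and NR1D2 (38.3%) are the most AT-rich members, BMAL1 (45.7%), CRY1 (46.0%) and PER3 (46.5%) lie between, and PER2 (52.4%), CRY2 (56.7%), NR1D1 (58.9%), PER1 (62.7%) and DBP (65.2%) are richer in GC. Over all genes, the median log2 FC of Polysome against Input went from 0.15 below 40% GC to -0.18 at 60% GC or above in Ctrl, and from 0.32 to -0.30 in siRNAG5 (Pearson r of -0.13 over 13628 genes and -0.23 over 14738 genes, which are not independent replicates and share their libraries). Both NR1D2 and CLOCK lay above the median of their GC range in both treatments, and so did PER2 and CRY1. With an offset for GC content, chosen after seeing the data, the values of NR1D2 were 1.55 in Ctrl and 2.42 in siRNAG5. CLOCK, CRY1 and PER2 kept their calls in both, and BMAL1 lost its siRNAG5 call (0.45). NR1D2 and NR1D1 also differ in build: the canonical transcripts have 5231 and 2630 bases, of which 1737 and 1842 are coding.

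**Figure D4:**
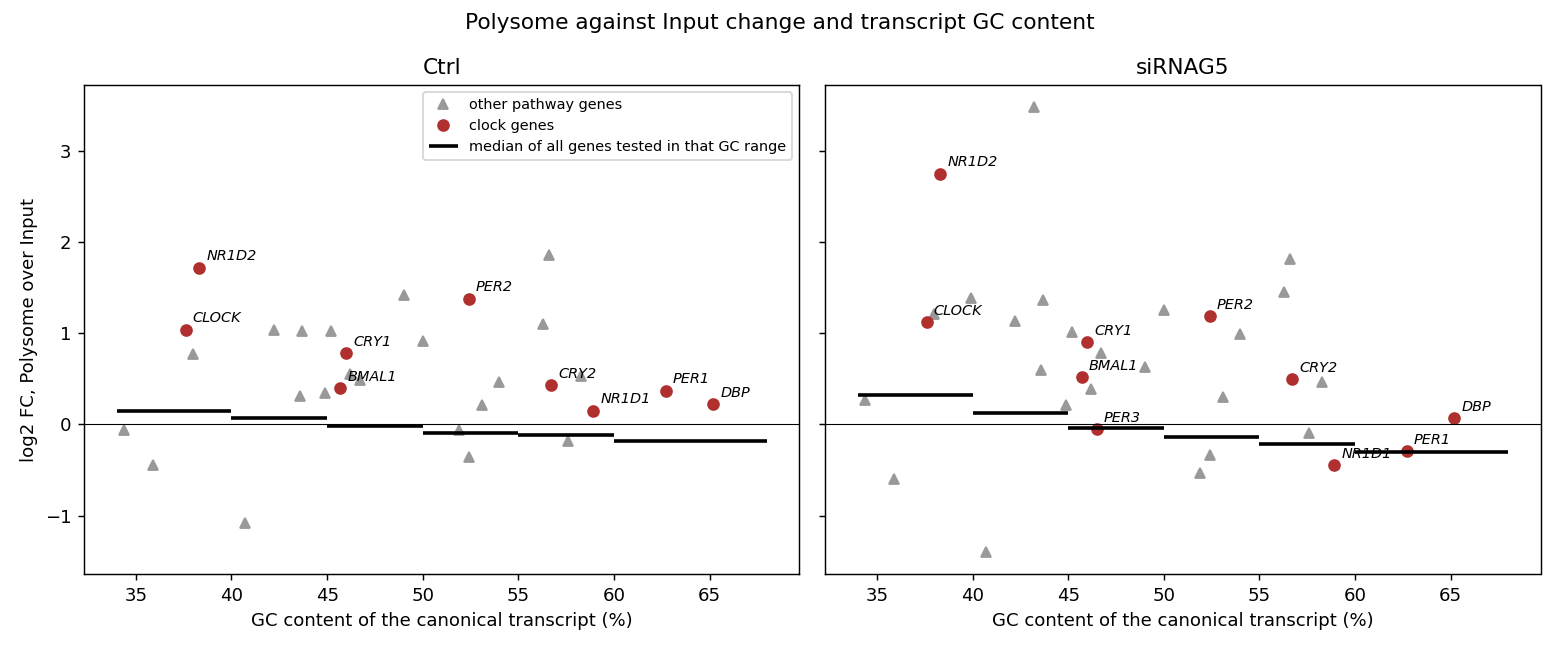
Log2 FC of Polysome over Input (vertical axis) against the GC content of the canonical transcript in percent (horizontal axis) for clock genes (named circles) and the other pathway genes (triangles), in Ctrl and siRNAG5. Horizontal lines are medians of all genes tested in each GC range, falling from 0.15 to -0.18 in Ctrl and from 0.32 to -0.30 in siRNAG5; NR1D2 lies far above its line in both.

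A list of 25 further pathway genes, with partners, E-box repressors, ROR and D-box factors, kinases, ubiquitin ligases, corepressors and outputs, gave the setting of the loop. CIART was too low to be tested in any comparison, as were RORB and HLF in Ctrl and in Input after silencing. In Ctrl, 10 of 21 tested were called higher in Polysome than in Input and 1 lower, against 20.8% and 18.8% of all genes. In siRNAG5 12 of 23 were higher and 2 lower, against 23.9% and 21.2%. RORB and HLF, among those higher in siRNAG5, entered that test through their Polysome reads, so their calls are in part set by the filter. Their median log2 FC was 0.49 and 0.63, and that of all genes -0.03 and -0.04. Besides the genes described next, BHLHE40 (0.92 ± 0.37), BHLHE41 (1.42 ± 0.44), NFIL3 (0.55 ± 0.16) and CSNK1E (0.53 ± 0.11) rose in Ctrl. In siRNAG5, BHLHE40 (1.25 ± 0.31), RORB (1.39 ± 0.38), WEE1 (0.78 ± 0.22), NOCT (0.99 ± 0.22) and KLF10 (0.60 ± 0.20) rose, with an adjusted p of at most 0.0248 in siRNAG5 and at most 0.0477 in Ctrl. Several of these calls rested on single libraries. In Ctrl, BHLHE40 lost its call without Input replicate 1, 2 or 3 or Polysome replicate 3 or 4 (0.64 to 1.07) and with DESeq2 (0.93), BHLHE41 without Input replicate 2 (1.10) or 3 (1.23), NFIL3 without Input replicate 2 (0.45) or Polysome replicate 4 (0.47), and CSNK1E without Input replicate 1 (0.50). BHLHE40 also lost its Ctrl call with RLE size factors (0.95) and in a fit over all 16 libraries (0.91). Without both Input Ctrl replicates that hold liver reads, BHLHE40 (1.12), BHLHE41 (1.49) and NFIL3 (0.54) were not called in Ctrl. In that fit, too, fraction and liver reads cannot be told apart. In siRNAG5, KLF10 lost its call without Input replicate 1 (0.62) or 3 (0.49) or Polysome replicate 2 (0.42). It was also lost over all 16 libraries (0.52), with 1 surrogate variable (0.50) and with an offset for GC content (0.47). TEF, a PAR bZIP factor like DBP, rose by 1.86 ± 0.23 in Ctrl (edgeR adjusted p = 9.55e-06) and 1.81 ± 0.21 in siRNAG5 (adjusted p = 2.68e-05). HLF, the other member of that family, had 6 reads in Input siRNAG5, all in 1 library, and 88 in Polysome siRNAG5 (0.0747 ± 0.149 and 0.968 ± 0.28 CPM), a log2 FC of 3.48 ± 0.68 (adjusted p = 0.00114) that rests on those few reads. FBXW11, a ubiquitin ligase subunit for PER, rose by 1.02 ± 0.15 and 1.37 ± 0.12 in Ctrl and siRNAG5, and GSK3B, a kinase of several clock proteins, by 1.03 ± 0.14 and 1.13 ± 0.14. The corepressor NCOR1, which NR1D proteins recruit, rose by 1.02 ± 0.16 and 1.01 ± 0.17, and the deubiquitinase USP2 by 1.10 ± 0.20 and 1.45 ± 0.17. For these 4 genes the adjusted p lay between 5.18e-06 and 0.000381. BTRC, a paralog of FBXW11 (0.34 ± 0.14 and 0.21 ± 0.17), and the kinase gene CSNK1D (-0.18 ± 0.11 and -0.10 ± 0.11) were not called in either treatment. HDAC3, the deacetylase that works with NCOR1, was lower in both (-0.36 ± 0.14 and -0.34 ± 0.11, edgeR adjusted p = 0.0429 and 0.0208). CSNK1E was higher in siRNAG5 (0.46 ± 0.10, adjusted p = 0.00276). These values of HDAC3 and CSNK1E were not called only because they fell short of the fold limit. HDAC3 was called lower in Ctrl without Polysome Ctrl replicate 1 (-0.51).

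BMAL2, the paralog of BMAL1, went the other way. It was at 9.36 ± 1.08 CPM (SD, n = 4) in Input Ctrl and 4.40 ± 0.624 in Polysome Ctrl, and at 9.33 ± 0.914 and 3.35 ± 0.733 in siRNAG5, with no overlap between fractions. It fell by 1.08 in Ctrl (SE 0.17, edgeR adjusted p = 8.36e-05) and by 1.40 in siRNAG5 (SE 0.17, adjusted p = 4.10e-05) on the log2 scale. RORA, which activates BMAL1 at the sites NR1D proteins occupy, fell in siRNAG5 (-0.60 ± 0.18, adjusted p = 0.0131) and was at -0.45 ± 0.27 in Ctrl (adjusted p = 0.181). The siRNAG5 call of RORA was lost without Polysome siRNAG5 replicate 3 (-0.50), and its Ctrl value was called without Polysome Ctrl replicate 1 (-0.67).

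After silencing, 2 of 21 pathway genes tested were called higher in Input and 1 lower, against 10.5% and 6.02% of all genes. In Polysome 1 of 23 was called higher and 0 lower, against 3.95% and 4%. The median log2 FC was 0.10 in Input and 0.14 in Polysome, and 0.04 and 0.03 over all genes. DESeq2 also called 0 lower in Polysome, and 0 were lower at an unadjusted p under 0.05 in edgeR. KLF10, a zinc finger repressor with clock-controlled expression that also responds early to TGF-beta, rose in both, from 6.46 ± 1.67 to 12.7 ± 2.07 CPM in Input (log2 FC 0.99 ± 0.15 SE, edgeR adjusted p = 6.02e-06) and from 7.88 ± 3.34 to 18.1 ± 4.86 in Polysome (1.25 ± 0.29, adjusted p = 0.0259). The Polysome call of KLF10 was lost without Polysome Ctrl replicate 2 and without siRNAG5 replicate 2 or 3. BHLHE40, a repressor at E-boxes, rose in Input (0.64 ± 0.22, adjusted p = 0.0212) with overlapping groups. That call was lost with DESeq2 (0.61), in the fit over all 16 libraries (0.62) and without Input Ctrl replicate 2 (0.37) or 3 (0.57) or Input siRNAG5 replicate 2 (0.54) or 4 (0.50). NOCT, a clock output enzyme, fell in Input from 4.88 ± 0.681 to 3.04 ± 0.648 CPM (log2 FC -0.65 ± 0.18, adjusted p = 0.00512). Its call was lost, at -0.51, without Input Ctrl replicates 3 and 4, which hold liver reads. The difference of the siRNAG5 change between fractions was called by edgeR for 0 of 23 genes, and by DESeq2 for 0, with 2 at an unadjusted p under 0.05.

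The genes most like NR1D2 across the 16 libraries, by Pearson r of log2 CPM over 14957 genes, were RBPJ (0.991), BAG4 (0.990), NEK7 (0.989), GNG12 (0.988) and RAP2C (0.987). All 5 had a higher mean in Polysome siRNAG5 than in Polysome Ctrl and lower means in both Input groups. That pattern follows from picking them by likeness to NR1D2 and is no separate result. RBPJ, the nuclear effector of Notch signalling, was at 4.23 and 3.94 CPM in Input Ctrl and Input siRNAG5 and at 13.4 and 25.4 in Polysome Ctrl and Polysome siRNAG5. These correlations describe 4 groups more than 16 separate points, and by Spearman rho none of the 5 was among the first 5. Of the clock genes, CLOCK (r = 0.93), CRY1 (0.88), BMAL1 (0.77) and PER2 (0.65) followed NR1D2 most closely, CRY2 (0.42) and PER3 (0.23) less, and DBP (-0.04), PER1 (-0.13) and NR1D1 (-0.40) were at or below 0. Among the 14957 genes CLOCK ranked 589, CRY1 1310, BMAL1 2356 and PER2 3265, so many genes outside the clock followed NR1D2 more closely. The likeness is therefore not particular to the clock genes.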

How the data were processed

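RNA-Seq was analysed in 16 HEK293 libraries, 4 in each of 4 groups (Input or Polysome, Ctrl or siRNAG5). The study describes 4 independent biological samples of each treatment, with Input and Polysome RNA taken from each lysate. Input and Polysome libraries of a treatment are therefore not independent of each other. The authors deposited raw read counts per gene, made from stranded TruSeq mRNA libraries by alignment to GRCh38 with STAR 2.5.3a (version per the labels) and counting with QoRTs. The strand setting of the counting is not given in the sources used here. The summary rows of each file (reads with no feature, ambiguous or not uniquely mapped) were left out of library sizes: ambiguous reads were 4.14% to 7.41% and reads on no gene 0.667% to 1.33% of those counted. The members and gene lists were chosen with earlier results of these data known.

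Counts were tested with edgeR 4.0.16 (R 4.3.3; filterByExpr, TMM, quasi-likelihood F test, Benjamini-Hochberg over all genes tested). Each comparison was fitted on its own 8 libraries and the difference of the siRNAG5 change on all 16. Genes were called at 0.05 on the adjusted p where the log2 FC also passed 0.5 in size. The SE is the log2 FC divided by the square root of F. CPM levels use 1 TMM scaling of all 16 libraries, so they differ slightly from the fitted changes. Gene positions, lengths and GC content came from an annotation of GRCh38, which named 57532 of 58302 identifiers, and promoters from RefSeq. Named genes were the 10 members, the pathway genes past the call (some results are not reported here) and the 5 genes with the highest Pearson r to NR1D2; pathway genes named without a call (BTRC, CSNK1D and HDAC3) were chosen after their values were seen. Scripts were tested on simulated data. Alternatives were RLE size factors, no filter, DESeq2 1.42.0 without shrinkage, a replicate block, 1 fit over all 16 libraries, 1 surrogate variable (sva 3.50.0), each library left out and, chosen after seeing the data, an offset for GC content and the exclusion of Input Ctrl replicates 3 and 4.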

Additional observations from a re-analysis of the deposited data

How the results depend on the processing

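The counts of clock genes called given here include NR1D2, and those after silencing are a description. They stayed within 1.5 times the reported value but for the following. After silencing in Input it was 0 in a fit over all 16 libraries, where PER1 lost its call. For the difference of the siRNAG5 change, where the reported count was 0, it was 1 with no filter on low counts and 1 with DESeq2 (NR1D2 in both), and 2 with 1 surrogate variable (NR1D2 higher and PER1 lower). The causes were not tested. Of the other pathway genes, 2 were called after silencing in Polysome with no filter and 2 with 1 surrogate variable, against 1, and 1 for the difference with 1 surrogate variable, against 0. Leaving out 1 library gave 3 to 6 clock genes called for Polysome against Input in siRNAG5 (3 without Input replicate 1 and without Polysome replicate 3) and 4 to 6 in Ctrl, 1 to 1 after silencing in Input and in Polysome, and 0 for the difference. For the pathway genes it gave 2 to 5 after silencing in Input (5 without Input Ctrl replicate 4) and 0 to 1 in Polysome (0 without Ctrl replicate 2 and without siRNAG5 replicate 2 or 3). The count of all genes called in Polysome after silencing was 1146, and it was 1766 with no filter, 1941 with DESeq2, 2597 over all 16 libraries, 2999 with 1 surrogate variable and 189 to 1523 with 1 library left out (lowest without Polysome Ctrl replicate 2). For the difference it was 0, and 57, 29 and 575 with no filter, DESeq2 and 1 surrogate variable, 9 without Input Ctrl replicates 3 and 4, and 0 to 1 with 1 library left out. Some values near 0 changed sign: DBP for Polysome against Input in siRNAG5 was -0.01 over all 16 libraries, PER3 there ran from -0.34 to 0.19 with 1 library left out, and NR1D1 in Ctrl from -0.01 to 0.30. The fit over all 16 libraries moved the median of all genes for Polysome against Input in siRNAG5 from -0.04 to -0.12. With an offset for GC content NR1D2 there was 2.42 in place of 2.75, and DBP after silencing in Input -0.33 in place of -0.16.

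By the study's design, Input and Polysome of a treatment are paired by lysate, and the reported tests hold no term for it. Same-numbered libraries were not taken as pairs, since the correlations of their deviations from the group means ran from -0.07 to 0.19 between Input and Polysome of Ctrl, -0.21 to 0.22 of siRNAG5, -0.03 to 0.07 between Ctrl and siRNAG5 of Input and -0.53 to 0.48 of Polysome, and 4, 3, 2 and 1 of 8 libraries correlated best with their own number. Low correlations do not show that the lysates were separate. With a replicate block the clock genes called were 1, 1, 0, 4 and 5 and the other pathway genes 3, 1, 0, 11 and 15 in the comparisons after silencing in Input and in Polysome, of the difference, and of Polysome with Input in Ctrl and in siRNAG5. PER2 and PER3, with as few as 3 reads in a library, did not pass the filter in Input, and with no filter their log2 FC after silencing was 0.01 ± 0.51 and 0.68 ± 0.47 (SE).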
